A study of Mus musculus with 33 samples.

Results

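Retinoic acid (RA) was given to embryoid bodies (EBs), and the 3 libraries of Neil2-mutant EBs + RA were compared with the 3 libraries of control EBs + RA, which together are 6 of the 33 libraries of the series. They were selected by their labels alone, and the counts of every gene entered the comparison. All lines came from E14TG2a, a mouse embryonic stem cell (mESC) line of male origin. Control lines had received the CRISPR/Cas9 plasmid pX330 without a guide and Neil2 lines the same plasmid with guides against Neil2, and both had been selected with puromycin. Each library was made from 1 clone, controls #1, #4 and #7 and Neil2 clones #1, #11 and #14, named replicates 1 to 3 in that order, so that the spread within a group is a spread between clones. EBs were aggregates of mESCs kept for 8 days without attachment, and both groups were given 5 µM RA from day 4. The series also holds undifferentiated mESCs and EBs without RA of the same clones, and Neil1- and Apex1-mutant lines. Because the RNA came from whole EBs, fewer cells of a type and less RNA per cell cannot be told apart.

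NEIL2 is a DNA glycosylase that starts base excision repair by removing oxidized bases. In mouse EBs RA drives differentiation toward neural progenitors and neurons, and through RA receptors it switches on the Hox genes that set position along the body axis. Exit from pluripotency, loss of germ cell genes and entry into neural, mesodermal and endodermal lineages therefore run in parallel in such cultures, and each has marker genes that can be followed in bulk RNA.

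Both Neil2 guides are shown because they define what the mutant alleles could have lost. They matched the minus strand of chromosome 14 in the assembly NCBIM37, each at 1 site next to an NGG motif, and capitals mark this motif (the PAM, which Cas9 needs).
mmNeil2_P1_1: gctgtgtggttaaggctgagGGG
mmNeil2_P1_2: gctgtgaagaatgtctgaaaAGG
The first lay at chr14:63810934-63810953 and the second at chr14:63810347-63810366, both in introns of Neil2 (ENSMUSG00000035121, chr14:63801280-63812378). The 587 bases between the cut positions held exon 2 with the start codon and 138 of the 987 coding bases of transcript Neil2-201. Of the 1932 exon bases of this transcript 154 (7.97%) lay between the cuts, so a count over the whole gene hardly measures their loss. Neil2 was read at 3.63, 4.27 and 4.82 CPM in the control libraries and at 6.42, 5.72 and 5.24 CPM in the Neil2 libraries, where CPM are counts scaled to the library's size by TMM. The Neil2 libraries lay above the controls without overlap, and the log2 fold change was 0.45 ± 0.22 (SE) with an FDR of 0.154 in edgeR's quasi-likelihood test, which did not pass. Reads were not separated by exon here, so the deletion itself was not checked. The related glycosylases Neil1 and Neil3 had log2 fold changes of -0.16 ± 0.2 and -0.44 ± 0.2, and neither passed.

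Of 16055 genes with enough counts, 5601 (34.9%) were differentially expressed (DE) in Neil2 against control EBs + RA, that is, they had an FDR under 0.1 and moved by more than 0.5 on the log2 scale in either direction. They were 2936 raised genes (18.3%) and 2665 lowered genes (16.6%), the backgrounds for every count below. The falls were the deeper changes. At an absolute log2 fold change above 3 there were 73 raised and 278 lowered genes, and above 5 there were 1 and 54. At an unadjusted p under 0.05 there were 44.5% of genes. The median over all genes tested was 0.0, and it was 0.02 with RLE size factors. Each library held 24169065 to 29045090 counts on genes, and groups did not overlap for 48.4% of the genes tested.

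One control and one Neil2 clone stood apart from the others of their group. Control replicate 3 (clone #7) had Pearson correlations of log2 CPM of 0.89 to 0.921 with the Neil2 libraries, over 11389 genes, against 0.85 to 0.855 for the other controls. The genes raised in Neil2 had a median 0.4 higher (log2 CPM) in this library than in the other controls and the lowered genes a median 0.29 lower, whereas the Neil2 libraries were 1.0 to 1.13 from the controls in both directions. Neil2 replicate 1 (clone #1) correlated at 0.956 and 0.965 with the other Neil2 libraries, which reached 0.99 with each other. Without control replicate 3 the count of DE genes was 6582, and without Neil2 replicate 1 it was 5904. It was 4024 without control replicate 1, 4371 without control replicate 2, 4938 without Neil2 replicate 2 and 4702 without Neil2 replicate 3. Reads aligned to more than 1 place were 11.44 to 13.35% in control and 14.81 to 19.03% in Neil2 libraries, and the part of this difference in the results was not tested.

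Neural genes made up the largest falls. Of 21 neural stem cell and neural plate genes tested, 17 were lowered and 0 raised, and the median log2 fold change was -2.61. Nes, an intermediate filament gene of neural progenitors, was read at 167, 139 and 126 CPM in the control and at 22.5, 24.3 and 23.9 CPM in the Neil2 libraries. The groups were far apart, and the log2 fold change was -2.61 ± 0.14 (FDR = 0.000158). Pax6, a transcription factor of neural progenitors, stood at 136, 138 and 51.1 CPM in the controls and at 8.48, 6.41 and 7.74 CPM in Neil2. Its level in control replicate 3 was the lowest of the controls and was still far above all Neil2 libraries (log2 fold change -3.85 ± 0.38, FDR = 0.000472). Summed over the list, control replicate 3 held 974 CPM against 1680 and 1760 CPM in the other controls and 244 to 301 CPM in Neil2. Hes5, a Notch target of progenitors, dropped from 9.83, 12.9 and 4.36 CPM to 0.0823, 0.243 and 0.0748 CPM (log2 fold change -6.0 ± 0.59). Vim (-3.3 ± 0.22) and Pou3f3 (-4.4 ± 0.46) were lowered as well, and Pou3f2 had 153, 126 and 42 counts in the controls against 0, 1 and 2 in Neil2. Sox2, which neural progenitors share with pluripotent cells, did not pass, with 92, 94 and 43.4 CPM in the controls and 28.9, 78.7 and 66.9 CPM in Neil2.

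Proneural and early neurogenesis genes had the lowest median of all 48 lists with a tested member, -3.74 on the log2 scale, with 15 of 19 lowered and 1 raised. Neurog1 and Neurog2, bHLH factors that commit progenitors to neuronal fate, were nearly lost. Neurog1 was read at 19.6, 19 and 8.51 CPM in the controls and at 0, 0.208 and 0.0748 CPM in Neil2 (log2 fold change -7.24 ± 0.65, FDR = 0.000346), and Neurog2 changed by a log2 fold change of -6.63 ± 0.53. Nhlh1 and Nhlh2, bHLH factors of young neurons, changed by -6.44 ± 0.41 and -6.87 ± 0.42. Neurod4 had 172, 115 and 86 counts in the controls against 1, 0 and 0 in Neil2, and St18 had 98, 86 and 63 against 1, 0 and 0. Dll1, the Notch ligand of newborn neurons, changed by -2.74 ± 0.42. Btg2, an antiproliferative gene that is also a p53 target, was the member that rose, from 88.2, 64.3 and 85.9 CPM to 115, 138 and 141 CPM.

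Differentiated neurons showed the same direction, with 21 of 29 genes lowered, 2 raised and a median of -1.63. Dcx, a microtubule protein of migrating neurons, was read at 35.6, 29.3 and 27.5 CPM in the controls and 1.36, 0.277 and 0.711 CPM in Neil2, without overlap (log2 fold change -5.32 ± 0.44, FDR = 0.000308). Neuronal tubulin Tubb3 went from 121, 133 and 66 CPM to 7.9, 18.7 and 16.2 CPM. Elavl3, an RNA-binding protein of neurons, Snap25, a synaptic vesicle fusion protein, and Celf3, a splicing regulator, changed by -2.75 ± 0.27, -6.09 ± 0.54 and -5.75 ± 0.4. Nefh, the heavy neurofilament subunit, was raised (1.1 ± 0.26). Mapt, the other raised member, had a log2 fold change of 0.58 ± 0.24 and passed in 2 of the 6 fits that left out a library.

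**Figure D1:**
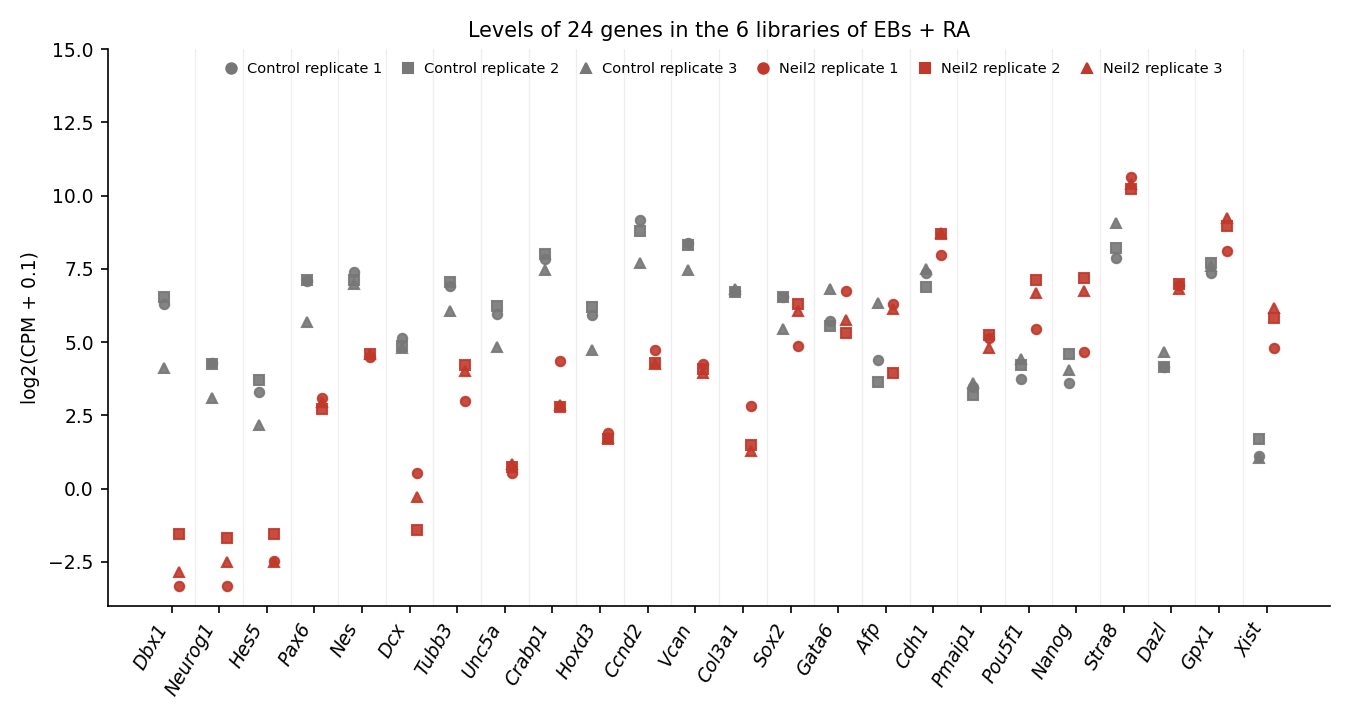
Levels of 24 genes in the 6 libraries of EBs + RA, as log2(CPM + 0.1) on the vertical axis, with grey symbols for control and red symbols for Neil2 libraries and 1 symbol shape for each replicate. Neural genes on the left (Dbx1 to Crabp1) lie lower in all Neil2 libraries, Sox2, Gata6 and Afp overlap, and pluripotency and germ cell genes on the right lie higher.

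Axon guidance genes went the same way, with 23 of 31 lowered and 1 raised (median -1.62). Unc5a, a netrin receptor, was read at 62.3, 75.9 and 28.2 CPM in the controls and at 1.36, 1.56 and 1.68 CPM in Neil2 (log2 fold change -5.17 ± 0.39, FDR = 0.000244). Robo3, which steers axons across the midline, changed by -4.12 ± 0.53, the ephrin receptor Epha3 by -5.68 ± 0.48, Robo1 by -1.01 ± 0.18 and the netrin ligand Ntn1 by -1.06 ± 0.23. In the Notch pathway, by which neighbouring progenitors hold each other back from differentiation, 17 of 23 genes were lowered and 2 raised (median -1.27). Lfng, a Notch-modifying glycosyltransferase, and Dtx4 changed by -3.08 ± 0.43 and -2.99 ± 0.34, and Jag2 rose by 0.96 ± 0.17. Genes of migrating neural crest were lowered in 16 of 22 cases and raised in 2 (median -2.09). Pax3, Tcfap2b and Crabp1, 2 transcription factors and an RA-binding protein of crest cells, changed by -3.42 ± 0.42, -7.74 ± 0.72 and -4.27 ± 0.44. The study had itself followed these genes on these samples, so they are no independent evidence of the list's direction. It had also followed Pax6, Nes, Pax2, Hoxa2, Neurog1, Pou5f1, Gata6, Eomes, Bcl2 and Bak1 in Neil2-mutant EBs + RA. The same therefore holds for these genes and their lists. Erbb3, a neuregulin receptor, was raised (1.56 ± 0.32), with 18.3, 20.4 and 25.1 CPM in the controls and 33.4, 86.4 and 68.8 CPM in Neil2.

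The homeobox and bHLH genes that divide the neural tube from dorsal to ventral did not move as a block, as 12 of 21 were lowered and 4 raised (median -1.69). Dbx1, of intermediate interneuron progenitors, had the largest fall among genes averaging at least 2 log2 CPM whose groups did not overlap, from 79.1, 92.7 and 17.2 CPM to 0, 0.243 and 0.0374 CPM (log2 fold change -9.24 ± 0.94, FDR = 0.000538). Prdm12, of a neighbouring progenitor domain and of sensory neurons, had 217, 238 and 174 counts in the controls against 0, 1 and 0 in Neil2. Wnt1, of the dorsal midline, changed by -6.15 ± 0.61, and Shh, the ventral signal, by -2.33 ± 0.6. Lmx1a, of the roof plate and floor plate, rose from 3.98, 5.17 and 7.27 CPM to 23.4, 18.4 and 12.9 CPM, and Nkx2-9, of ventral progenitors, rose from 0.423, 0.244 and 0.745 CPM to 2.47, 2.98 and 3.55 CPM. Foxa2, of the floor plate and the endoderm, overlapped between groups and did not pass (0.33 ± 0.37). Genes of hindbrain, motor and sensory neurons were lowered in 9 and raised in 4 of 20 cases, and glial genes in 2 and 2 of 8. Without control replicate 1, control replicate 2 or Neil2 replicate 3, 2 of the hindbrain, motor and sensory members were raised. The lowered ones were 6 without control replicate 1 or 2.

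Among 16 forebrain and eye field regulators 7 were raised and 5 lowered, and the median was 0.59. The raised ones included Mitf, a factor of pigment cells and retinal pigment epithelium, at 3.77, 2.28 and 3.58 CPM in the controls and 7.12, 6.24 and 5.35 CPM in Neil2. Those lowered included the forebrain factors Emx2 (-3.66 ± 0.3), Sp8 (-3.62 ± 0.54) and Lhx5 (-3.25 ± 0.37). Without Neil2 replicate 2, 4 forebrain members were raised in place of 7. At the midbrain-hindbrain boundary 5 of 15 genes were lowered and 3 raised. Pax2 and Pax8 changed by -2.74 ± 0.38 and -1.88 ± 0.39, whereas En1 and En2 were read at 2.08 CPM or less in each library and did not pass. Cnpy1, an FGF signalling gene of that boundary, rose from 5.6, 7 and 4.5 CPM to 16, 12.6 and 12 CPM.

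Hox genes split by their position in the clusters. Of 23 tested genes of paralog groups 1 to 8, which are expressed further toward the head than the later groups, 20 were lowered and 1 was raised. Their median was -1.58. Of 12 tested genes of groups 9 to 13, expressed toward the tail, 11 were raised and 1 was lowered, with a median of 1.82. Hoxd3 was read at 61.1, 73.8 and 26.3 CPM in the controls and at 3.66, 3.12 and 3.22 CPM in Neil2 (log2 fold change -4.01 ± 0.38, FDR = 0.00039). Hoxd4 and Hoxc6 followed, with log2 fold changes of -5.16 ± 0.52 and -4.27 ± 0.37, and Hoxa2, of the second rhombomere, with -1.31 ± 0.23. Hoxc13 stood at 1.48, 1.14 and 2.23 CPM in the controls and at 8.11, 8.04 and 6.7 CPM in Neil2 (log2 fold change 2.23 ± 0.3, FDR = 0.00145), and Hoxa10 and Hoxd13 rose by 2.68 ± 0.4 and 2.18 ± 0.39. The posterior genes were thus raised from a low level. The exceptions, named after their values were seen, were Hoxb1, raised by 0.93 ± 0.25 (SE), and Hoxb9, with a log2 fold change of -1.72 ± 0.27 (SE). Hoxc8 (0.4 ± 0.24) did not pass. Over the whole list 12 of 35 genes were raised and 21 lowered, and these counts were 12 and 21 without control replicate 3 and 12 and 20 without Neil2 replicate 1.

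**Figure D2:**
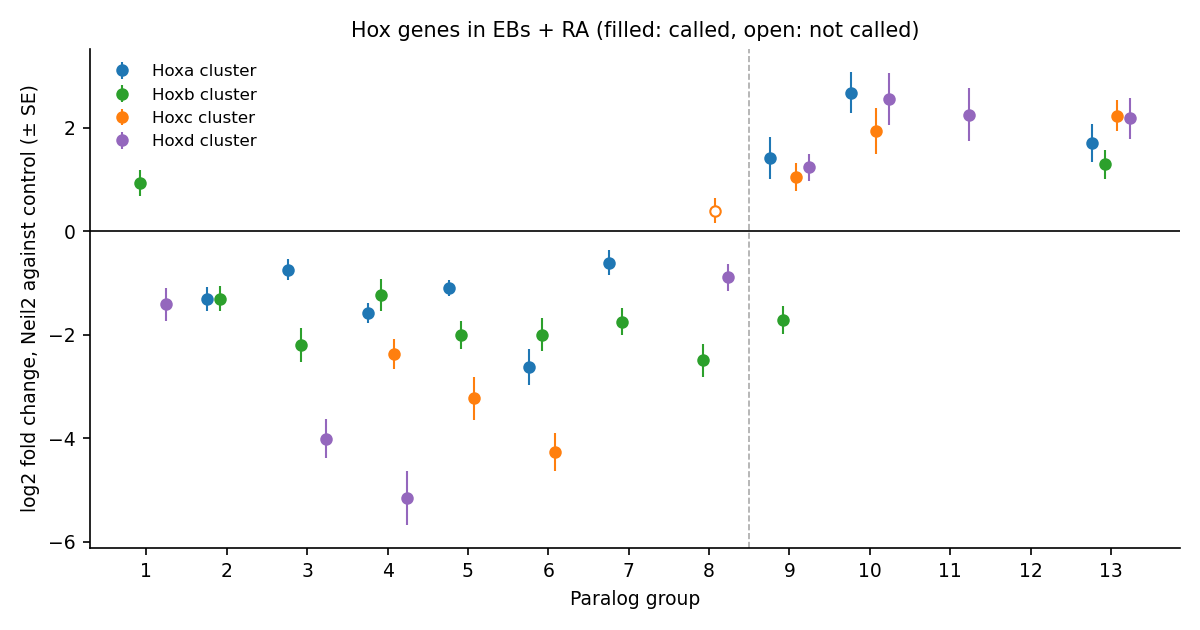
Log2 fold change of 34 of the 35 tested Hox genes in Neil2 against control EBs + RA with its SE (vertical axis), by paralog group (horizontal axis) and cluster (colour), filled where the gene was called. Of the 22 genes left of the dashed line 20 were lowered, and of the 12 to the right 11 were raised.

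Retinoid genes, the machinery that makes, binds, reads and degrades RA, were raised in 8 and lowered in 11 of 33 cases, with a median of -0.1. Cyp26a1, the enzyme that clears RA and an RA target, rose from 639, 572 and 879 CPM to 2120, 1090 and 1330 CPM (log2 fold change 1.12 ± 0.26, FDR = 0.0134). Stra8, an RA target that opens meiosis, rose from 234, 300 and 532 CPM to 1610, 1200 and 1360 CPM (1.97 ± 0.29), and the caudal homeobox gene Cdx1, also an RA target, by 2.02 ± 0.37. On the other side stood Aldh1a2, which makes RA, at 98.5, 97.4 and 99.3 CPM in the controls and 15.2, 5.58 and 4.79 CPM in Neil2 (-3.54 ± 0.41), the RA-binding proteins Crabp1 and Crabp2 (-4.27 ± 0.44 and -1.6 ± 0.34), the receptor gene Rarb (-0.92 ± 0.14) and the orphan receptor gene Nr2f1 (-3.93 ± 0.36). RA targets were therefore found on both sides. Without control replicate 1, 5 members were raised in place of 8.

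Pluripotency genes had the highest median of all lists. Of 27 naive pluripotency genes tested, 22 were raised and 0 lowered, with a median of 1.84. Pou5f1 (Oct4) was read at 13.4, 18.5 and 21.5 CPM in the controls and at 43.2, 140 and 103 CPM in Neil2 (log2 fold change 2.42 ± 0.39, FDR = 0.00319). Nanog stood at 12.1, 24 and 16.5 CPM in the controls and 25, 145 and 106 CPM in Neil2 (2.4 ± 0.56, FDR = 0.0139). All Neil2 libraries lay above all controls, but by little in replicate 1, whose Nanog was close to that of control replicate 2. Klf2, Zfp42 (Rex1) and Dppa5a, factors and a marker of naive cells, changed by 2.59 ± 0.41, 1.79 ± 0.33 and 2.72 ± 0.42. The list's median stood 0.84 above the controls (log2 CPM) in Neil2 replicate 1 and 2.32 and 2.15 above in replicates 2 and 3, and 25 of 27 genes were raised without replicate 1. Levels were far below those of stem cells, since with all stages scaled together Pou5f1 was 40 to 131 CPM in Neil2 EBs + RA and 977 to 1060 CPM in Neil2 mESCs.

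Genes of the formative and primed epiblast, the state after the naive one, were mixed, with 9 of 18 raised and 7 lowered. Nodal, the TGF-beta ligand of the epiblast, rose from 6.52, 9.03 and 11.7 CPM to 19.4, 64.4 and 55.3 CPM (2.35 ± 0.43), its inhibitor Lefty2 by 3.17 ± 0.56 and Fgf4 by 3.01 ± 0.7. Fgf5 (-2.31 ± 0.35), Sall2 (-2.19 ± 0.17) and Lef1 (-2.18 ± 0.26) were lowered. The de novo methyltransferases went apart, with Dnmt3b raised by 1.04 ± 0.21, the cofactor Dnmt3l by 1.76 ± 0.26 and Dnmt3a changed by -0.79 ± 0.11.

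Germline and meiosis genes were raised in 26 of 30 cases and lowered in 1, the largest share raised of any list, with a median of 1.56. Dazl, an RNA-binding protein of germ cells, was read at 17.6, 17.6 and 25.1 CPM in the controls and at 123, 127 and 113 CPM in Neil2 (log2 fold change 2.59 ± 0.17, FDR = 0.000158). Unlike the pluripotency genes it was as high in Neil2 replicate 1 as in the others, and the list's medians were 1.62, 1.52 and 1.43 above the controls in the 3 Neil2 libraries. Hormad1, which coats meiotic chromosomes, rose by 2.94 ± 0.33, the piRNA pathway gene Mael by 1.53 ± 0.24, the helicase gene Ddx4 by 0.94 ± 0.22 and the factor Sohlh1 by 3.88 ± 0.51. Ddx25 was lowered (-1.8 ± 0.23). Control replicate 3 had the highest summed level of the list among the controls, 1320 CPM against 768 and 810 CPM, and the Neil2 libraries held 2600 to 2960 CPM.

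Promoters of germline genes often carry the E-box CACGTG, which is bound by bHLH repressors in somatic and stem cells, so 10 motifs were searched on both strands of RefSeq promoters (assembly GRCm38.p6, 250 bases before to 50 after the start). CACGTG was found in 11 of 26 germline list promoters that matched by symbol (42.3%), in 8.09% of all 27025 promoters, in 11.4% of those of tested genes, in 10.6% of those of raised genes and in 10.4% of those of lowered genes. For the others the share of germline promoters stands first and that of all promoters second. The E-box CAGCTG was in 19.2% and 18.3%, and the E-box CAGATG in 15.4% and 19.2%. The octamer ATGCAAAT was in 0% and 1.97%, and its shorter relative TTTGCAT in 3.85% and 5.24%. The motif CATGTC was in 0% and 11.6%, and the nuclear receptor motif AGGTCA in 15.4% and 18.1%. The GC box GGGCGG was in 61.5% and 38.2%, the E2F motif TCCCGCC in 23.1% and 12.7% and CGCGAGA in 3.85% and 2.92%. Against promoters of tested genes the higher germline shares of GGGCGG and TCCCGCC were not seen. GGGCGG was in 66.6% of those promoters, and TCCCGCC had nearly the same share there as in germline promoters. CATGTC was in 7.54% and CGCGAGA in 5.61% of promoters of tested genes. ATGCAAAT contains the reverse complement of TTTGCAT, so each match of the longer is also one of the shorter, and GGGCGG and TCCCGCC can overlap at neighbouring positions. Windows of 4 raised genes, picked for their E-box, are shown with the E-box in capitals and 30 bases on each side, to let the flanks be compared. Each reads along the strand of its gene.
Hormad1 (chr3:95559590-95559655, plus strand): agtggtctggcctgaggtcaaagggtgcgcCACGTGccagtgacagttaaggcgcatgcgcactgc
Slc25a31 (chr3:40708748-40708813, plus strand): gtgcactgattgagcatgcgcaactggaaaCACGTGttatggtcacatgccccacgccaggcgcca
Sycp1 (chr3:102936159-102936224, minus strand): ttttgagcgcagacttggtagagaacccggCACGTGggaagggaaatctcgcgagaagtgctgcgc
Taf7l (chrX:134476504-134476569, minus strand): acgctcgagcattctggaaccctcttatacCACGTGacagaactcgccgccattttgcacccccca
The E-boxes began 57, 93, 94 and 49 bases before the annotated starts. The log2 fold changes of these genes were 2.94, 2.03, 1.98 and 2.08. A match is a description of the sequence and was not tested for binding.

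**Figure D3:**
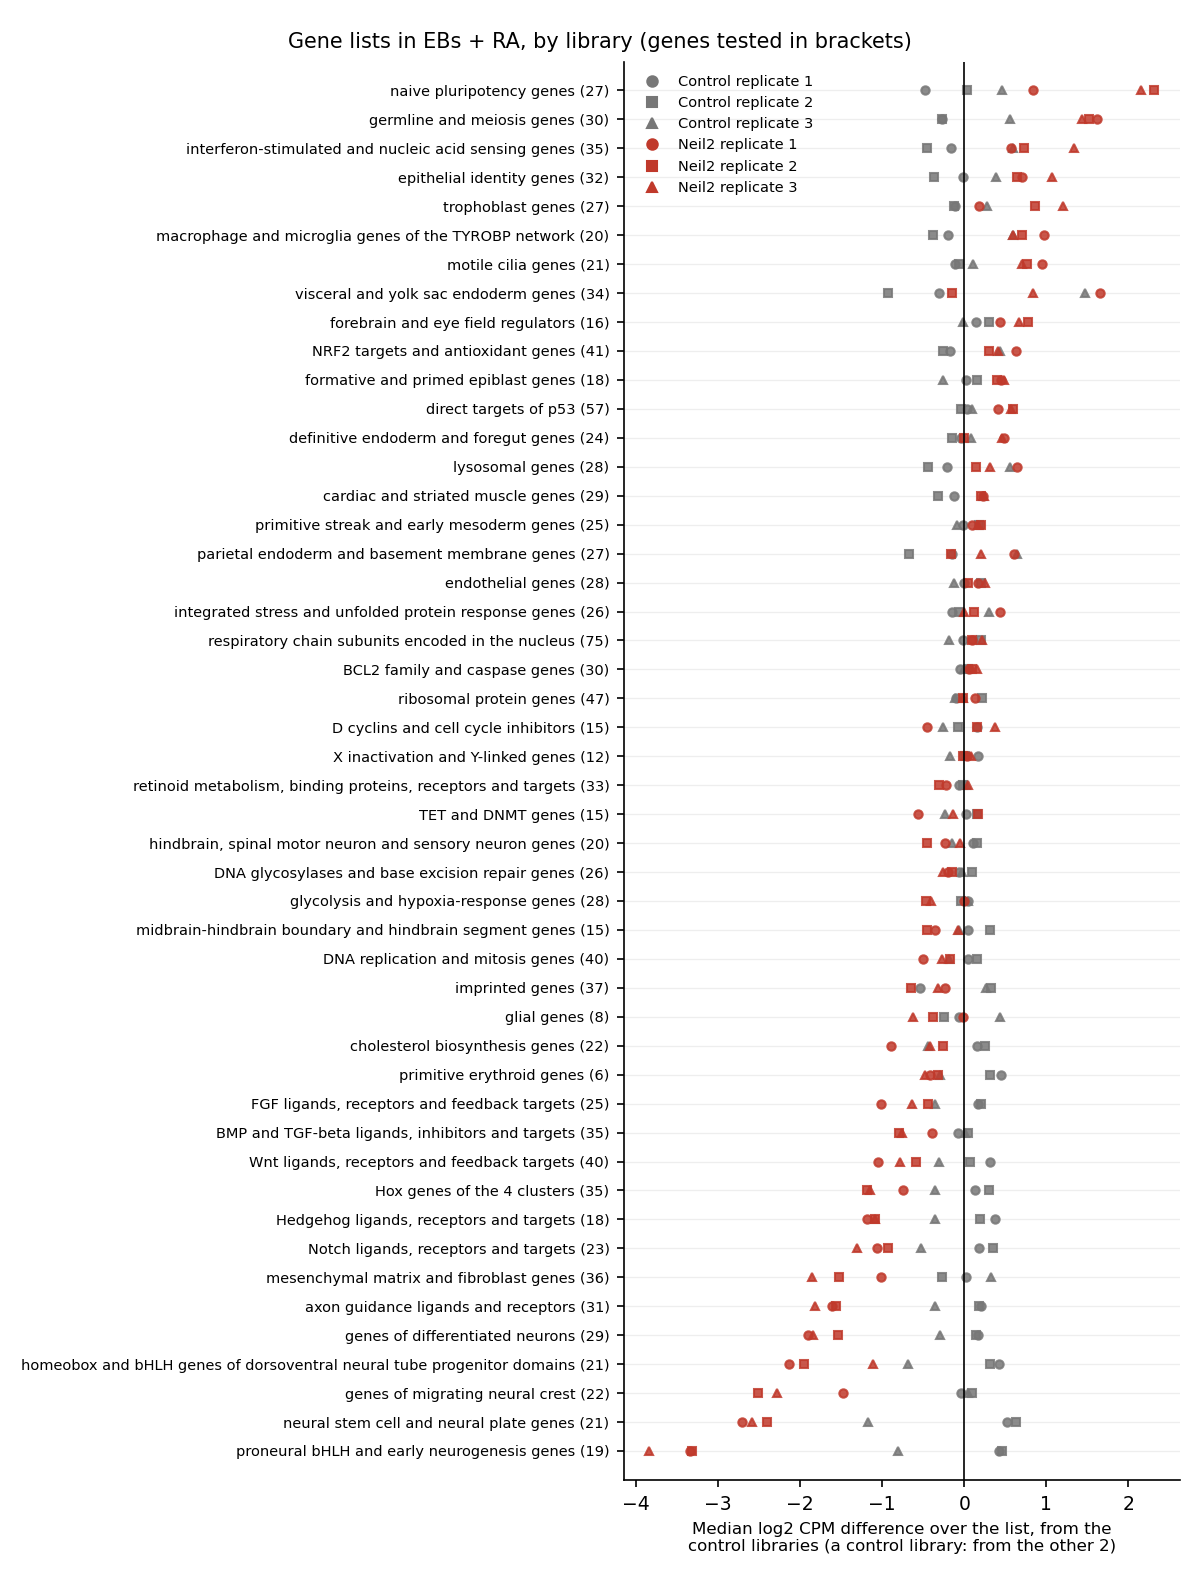
Median log2 CPM difference from the control libraries (horizontal axis) of 48 gene lists (rows, genes tested in brackets) in each of the 3 control (grey) and 3 Neil2 (red) libraries, with control libraries compared with the other 2 controls. Proneural genes lie lowest in every Neil2 library (-3.84 to -3.32), naive pluripotency genes range from 0.84 to 2.32, and control replicate 3 lies toward Neil2 for neural stem cell genes (-1.17) and germline genes (0.56).

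Mesenchymal and mesodermal genes split by kind. Mesenchymal matrix and fibroblast genes were lowered in 26 of 36 cases and raised in 3 (median -1.6). Col3a1 was read at 107, 104 and 113 CPM in the controls and 6.88, 2.7 and 2.36 CPM in Neil2 (log2 fold change -4.77 ± 0.38, FDR = 0.000265). The collagen gene Col1a1, the proteoglycan gene Vcan and the mesenchymal homeobox gene Prrx1 changed by -3.91 ± 0.47, -4.02 ± 0.26 and -4.8 ± 0.36, and the cartilage proteoglycan gene Acan was raised (1.63 ± 0.32). Control replicate 3 did not lie toward Neil2 in this list, where it was 0.32 above the other controls. Primitive streak and early mesoderm genes were raised in 7 and lowered in 9 of 25 cases. Eomes, Gsc and Mesp2, of the streak and early mesendoderm, rose by 1.85 ± 0.34, 2.67 ± 0.43 and 1.46 ± 0.33, whereas Kdr, of vascular and blood progenitors, Meox1, of somites, and Osr1, of intermediate mesoderm, changed by -2.66 ± 0.2, -2.7 ± 0.36 and -3.27 ± 0.45. Without control replicate 1, 4 members were raised in place of 7. T (Brachyury) was read at 0.142 to 0.624 CPM and did not pass.

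Cardiac and striated muscle genes were raised and lowered in 9 of 29 cases each. The factor Nkx2-5 rose by 1.88 ± 0.35 and the sarcomere genes Myl7 and Ttn by 1.78 ± 0.3 and 2.12 ± 0.44, from 4.11 CPM or less in each control, and Mef2c, Tbx5 and Acta2 changed by -2.53 ± 0.52, -2.8 ± 0.39 and -2.97 ± 0.36. Without control replicate 1, 4 members were raised, and without Neil2 replicate 3, 5 were. Endothelial genes were lowered in 9 and raised in 5 of 28 cases, with Fli1, an endothelial and blood factor, at 4.12, 4.35 and 3.12 CPM in the controls and 0.412, 0.416 and 0.412 CPM in Neil2 and the co-receptor gene Eng raised by 1.73 ± 0.31. The raised endothelial members were 2 without control replicate 1 and 3 without Neil2 replicate 2. Primitive erythroid genes were lowered in 3 and raised in 1 of 6 tested cases. The lowered members were 0 without control replicate 2 or Neil2 replicate 3, and 1 without control replicate 1 or Neil2 replicate 2. The defining globin genes of these cells, Hba-x, Hbb-bh1 and Hbb-y, were at 0.247 CPM or less in every library.

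Epithelial identity genes were raised in 20 of 32 cases and lowered in 0 (median 0.83). Cdh1 (E-cadherin) was read at 164, 119 and 181 CPM in the controls and at 249, 415 and 428 CPM in Neil2, without overlap (log2 fold change 1.23 ± 0.24, FDR = 0.00619). Epcam, the tight junction gene Cldn4, the serine protease gene St14 and the desmosome gene Pkp3 rose by 0.86 ± 0.16, 1.17 ± 0.25, 1.43 ± 0.14 and 1.5 ± 0.23. Many of these genes are also active in pluripotent cells. Trophoblast genes were raised in 13 of 27 cases and lowered in 1. The raised ones included Eomes, Ascl2 (1.11 ± 0.27) and Prl3d1 (1.44 ± 0.33). The number raised fell to 6 without control replicate 1 or 2 and to 7 without Neil2 replicate 3. Groups did not overlap for 11 of the 27 members, against 48.4% of all genes tested. The summed level of the list overlapped, at 4760, 5930 and 7490 CPM in the controls and 6300, 5630 and 7280 CPM in Neil2. Motile cilia genes were raised in 10 of 21 cases and lowered in 2, and the number raised was 6 without control replicate 1 or 2 or Neil2 replicate 2 or 3. The master factor of motile cilia, Foxj1, was at 1.27, 1.63 and 1.21 CPM and 1.52, 1.84 and 2.54 CPM and did not pass. Efhc2, of ciliary axonemes, rose from 1.02, 0.773 and 3.4 CPM to 22, 16 and 11.9 CPM.

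Endoderm genes varied between clones of both genotypes. Visceral and yolk sac endoderm genes were raised in 8 of 34 cases and lowered in 0, but Afp, a serum protein of that tissue, was read at 20.8, 12.5 and 80.6 CPM in the controls and 79, 15.5 and 70.8 CPM in Neil2. The groups overlapped, and neither Afp (0.54 ± 0.74) nor Ttr (0.82 ± 0.6) nor Gata6 (-0.09 ± 0.42) passed. The summed level of the list was 1020, 785 and 2080 CPM in the controls and 3140, 1290 and 2060 CPM in Neil2, so that control replicate 3 and Neil2 replicate 1 held the most in their groups. The number raised was 22 without control replicate 3, 2 without control replicate 1, 3 without control replicate 2 and 5 without Neil2 replicate 1 or 3. Cited1, a transcriptional cofactor, rose from 15.5, 12 and 20.8 CPM to 62.8, 32.6 and 46.2 CPM (1.55 ± 0.28). Parietal endoderm and basement membrane genes were raised in 4 and lowered in 2 of 27 cases, and 9 were raised without control replicate 3. The laminin genes Lama1, Lamb1 and Lamc1 had log2 fold changes of -0.04 ± 0.49, 0.24 ± 0.4 and 0.04 ± 0.32 and did not pass, with Lama1 at 317, 211 and 601 CPM and 623, 169 and 307 CPM. Definitive endoderm and foregut genes were raised in 7 and lowered in 4 of 24 cases. Trh, a neuropeptide gene used as an early endoderm marker, rose by 2.3 ± 0.23, and the chemokine receptor gene Cxcr4 and Nepn changed by -2.67 ± 0.38 and -4.9 ± 0.85.

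Macrophage and microglia genes of the TYROBP network were raised in 7 and lowered in 1 of 20 cases, and in 13 and 2 without control replicate 3. The defining markers chosen for these cells, Csf1r, Tyrobp and Ptprc (CD45), did not go together. Tyrobp and Ptprc were at 0.0748 CPM or less in every library, whereas Csf1r was raised (1.03 ± 0.24). Other raised members included Laptm5 (1.92 ± 0.37) and Lgals3 (1.28 ± 0.21). The summed level of the list was 113 to 159 CPM in the controls and 221 to 263 CPM in Neil2.

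In 4 signalling pathways of the embryo more genes were lowered than raised. In the Hedgehog pathway, in which ligand binding to PTCH1 releases SMO and the GLI factors, 13 of 18 genes were lowered and 0 raised (median -1.11). The ligand Shh, the receptor and target Ptch1, the target Gli1, the inhibitor Hhip and the co-receptor Boc changed by -2.33 ± 0.6, -1.45 ± 0.34, -2.61 ± 0.39, -2.49 ± 0.48 and -3.23 ± 0.25. Gli1, the standard readout of the pathway, was read at 50.3, 60.7 and 19.5 CPM in the controls and at 7.08, 8.49 and 5.72 CPM in Neil2 without overlap (FDR = 0.00233). In the Wnt pathway 20 of 40 genes were lowered and 3 raised (median -0.77). The receptor gene Lgr5 and the secreted antagonist Sfrp1 changed by -4.11 ± 0.45 and -3.38 ± 0.32 and the ligand Wnt7b rose by 1.76 ± 0.36, while Wnt3a was at 4.27, 2.93 and 1.21 CPM in the controls and 0.329, 3.6 and 3.52 CPM in Neil2 and did not pass. BMP and TGF-beta genes were lowered in 17 and raised in 6 of 35 cases, with the ligands Bmp4, Bmp5 and Tgfb3 at -1.28 ± 0.24, -3.43 ± 0.56 and -3.31 ± 0.42 and the extracellular target Tgfbi at -3.69 ± 0.26. The raised members included Nodal and Lefty2, described above, and their number was 3 without control replicate 1, control replicate 2 or Neil2 replicate 3. FGF genes were lowered in 12 and raised in 1 of 25 cases, among them the feedback inhibitors Spry1 (-1.76 ± 0.23) and Dusp6 (-1.01 ± 0.14) and the ligands Fgf9 (-2.91 ± 0.45) and Fgf15 (-3.31 ± 0.73). The raised member was Fgf4.

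Direct targets of p53, the transcription factor activated by DNA damage, were raised in 30 of 57 cases and lowered in 3 (median 0.52). Pmaip1 (Noxa), a pro-apoptotic BH3-only gene, was read at 10.9, 9.03 and 12.2 CPM in the controls and 35.4, 37.8 and 27.8 CPM in Neil2 (log2 fold change 1.65 ± 0.18, FDR = 0.000723). Mdm2, which feeds back on p53, stood at 167, 160 and 194 CPM in the controls and 295, 324 and 269 CPM in Neil2 (0.77 ± 0.12). The stress cytokine Gdf15 rose from 0.282, 0.407 and 0.425 CPM to 2.35, 3.22 and 3.89 CPM (3.07 ± 0.35). Cdkn1a (p21) was at 121, 110 and 130 CPM and 190, 134 and 165 CPM, and with 0.43 ± 0.15 it did not reach the fold limit (FDR = 0.0524). The 3 lowered members were Trim35 (-0.84 ± 0.1), Trp53i11 (-1.31 ± 0.28) and Notch1, which is also a neural gene and passed in 4 of the 6 fits that left out a library. Trp53 itself overlapped between groups (-0.38 ± 0.3). Several members have other roles in stem cells and embryos, and in all 6 fits that left out a library 24 to 31 members were raised.

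Genes of the BCL2 family and caspases were raised in 9 and lowered in 4 of 30 cases. The pro-apoptotic gene Bik rose by 1.84 ± 0.37 and the family member Bcl2l14 by 1.61 ± 0.31. The anti-apoptotic gene Bcl2 was read at 14.7, 14 and 9.54 CPM in the controls and 4.49, 4.37 and 4.23 CPM in Neil2 (-1.54 ± 0.22, FDR = 0.00194), and the pro-apoptotic gene Bok changed by -1.47 ± 0.24. Pro-apoptotic genes were thus on both sides, and Bak1 did not pass (0.13 ± 0.17). The number raised was 5 without control replicate 1 or Neil2 replicate 3.

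Of 40 DNA replication and mitosis genes, 5 were lowered and 1 was raised, below the background in both directions. Mki67 and Ccnb1 had log2 fold changes of -0.31 ± 0.12 and -0.05 ± 0.12, and Rrm2, which makes deoxynucleotides, was lowered (-0.94 ± 0.21). The lowered members were 12 without control replicate 3, 10 without Neil2 replicate 2, 3 without control replicate 1 or Neil2 replicate 1 and 2 without control replicate 2. Among 15 D cyclin and cell cycle inhibitor genes 4 were raised and 4 lowered. Ccnd2 was read at 572, 442 and 206 CPM in the controls and at 26.6, 19.3 and 18.9 CPM in Neil2 (-4.24 ± 0.38, FDR = 0.000343), Ccnd1 changed by -3.11 ± 0.36 and their partner Cdk4 by -1.01 ± 0.13. The D cyclins link growth signals to the cell cycle, and Ccnd3 did not pass (0.04 ± 0.26). The inhibitor genes Cdkn2a and Cdkn2b rose by 1.34 ± 0.16 and 0.88 ± 0.19.

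DNA repair by base excision changed little as a list, with 5 of 26 genes lowered and 1 raised, and 3 lowered without control replicate 2. Smug1, which removes uracil, was at 84.8, 92.9 and 60.1 CPM in the controls and 23.3, 18.8 and 19.5 CPM in Neil2 (-1.95 ± 0.18), and Tdg, which removes thymine and oxidized methylcytosine, changed by -0.74 ± 0.13. Apex1, the endonuclease that follows the glycosylases, was read at 13.5, 14.9 and 15.4 CPM in the controls and 5.23, 7.21 and 6.51 CPM in Neil2 (-1.21 ± 0.19, FDR = 0.00283). Polg, the mitochondrial DNA polymerase, rose by 0.83 ± 0.15. NRF2 targets and antioxidant genes were raised in 15 of 41 cases and lowered in 2, with Gpx1, a glutathione peroxidase, at 165, 206 and 192 CPM in the controls and 276, 500 and 601 CPM in Neil2 (1.29 ± 0.26) and Prdx2, a peroxiredoxin, changed by -1.17 ± 0.19. The number raised was 8 without control replicate 2 and 10 without Neil2 replicate 1. The list's median was higher in control replicate 3 than in the other controls by 0.44, and in Neil2 it was 0.63, 0.3 and 0.41 above the controls. Summed over the list, control replicate 3 held 10200 CPM, close to the 10400 CPM of Neil2 replicate 2.

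Respiratory chain subunits encoded in the nucleus were raised in 10 and lowered in 0 of 75 cases (13.3% raised), with a median of 0.12. Cox7b, encoded on the X chromosome, rose from 215, 244 and 189 CPM to 347, 562 and 589 CPM (1.21 ± 0.21), and Uqcrq and Cox5b by 0.67 ± 0.17 and 0.76 ± 0.21, while Ndufs1 and Sdha did not pass. The number raised was 4 to 6 without control replicate 1, control replicate 3 or Neil2 replicate 3. The 37 gene identifiers of the mitochondrial chromosome were listed at 0 in all 6 libraries, so its genes give no value here. Glycolysis genes were lowered in 6 and raised in 2 of 28 cases, with Ldha, Eno1 and Pkm2 at -1.12 ± 0.26, -1.21 ± 0.19 and -0.9 ± 0.12 and the glucose transporter Slc2a3 raised by 1.16 ± 0.21. The lowered members were 11 without Neil2 replicate 1. Cholesterol biosynthesis genes were lowered in 10 and raised in 1 of 22 cases, among them Cyp51 (-1.09 ± 0.18) and Idi1 (-1.48 ± 0.33), and 6 were lowered without control replicate 2.

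Interferon-stimulated and nucleic acid sensing genes were raised in 16 of 35 cases and lowered in 0 (median 0.86). Bst2, a membrane protein that tethers virus particles, was read at 36.5, 38.8 and 79.4 CPM in the controls and at 154, 111 and 195 CPM in Neil2 (1.57 ± 0.33, FDR = 0.00835). The canonical members Ifit1 and Irf7 had log2 fold changes of 0.79 ± 0.56 and 0.58 ± 0.38, overlapped between groups and did not pass. The number raised was 9 without control replicate 1 or 2, 10 without Neil2 replicate 3 and 23 without control replicate 3. Groups did not overlap for 12 of the 35 members, against 48.4% of all genes tested. The list's median was 0.6 above the other controls in control replicate 3, and 0.57, 0.73 and 1.34 above the controls in Neil2. Genes of the integrated stress and unfolded protein responses were raised in 11 and lowered in 1 of 26 cases (median 0.13). Without Neil2 replicate 1 these counts were 9 and 4. The summed level of the list overlapped between groups, at 3810, 3600 and 4450 CPM in the controls and 4780, 3900 and 3710 CPM in Neil2. Ddit3 (CHOP) rose from 10.9, 12.5 and 13.9 CPM to 45.2, 27.2 and 19 CPM (1.29 ± 0.3), with Neil2 replicate 1 the highest, and Atf4 did not pass (0.27 ± 0.19). Lysosomal genes were raised in 6 of 28 cases, a count that was 0 without control replicate 1 or 2, 3 without Neil2 replicate 1 or 3 and 19 without control replicate 3. Ribosomal protein genes, a list with no lineage role, had a median of 0.06 with 1 of 47 raised and 0 lowered. That member, Rpl10, is encoded on the X chromosome and rose from 1280, 1370 and 1350 CPM to 1890, 2210 and 2020 CPM (0.61 ± 0.11).

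Imprinted genes, expressed from 1 parental copy and prone to variation between stem cell clones, were lowered in 11 and raised in 2 of 37 cases. H19, a noncoding RNA, varied widely among the controls, with 931, 8020 and 10300 CPM, against 6880, 8220 and 4130 CPM in Neil2, and its neighbour Igf2 with 3910, 540 and 1750 CPM against 1130, 630 and 2740 CPM. Neither passed. Plagl1 and Nnat, a growth regulator and a neuronal membrane protein, changed by -2.81 ± 0.66 and -3.3 ± 0.69, with Nnat at 42.8, 368 and 237 CPM in the controls and 30, 22.1 and 13.6 CPM in Neil2. Among TET and DNMT genes 3 of 15 were raised and 3 lowered, and Tet3 changed by -1.39 ± 0.15 and Tet1 (-0.14 ± 0.21) did not pass.

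The X chromosome carried a larger share of raised genes than the autosomes. On X 212 of 605 tested genes were raised (35%) and 108 lowered (17.9%), against 17.6% and 16.6% of 15422 autosomal genes. The raised genes were not spread evenly, as 52 of 72 tested genes between 70 and 80 Mb, 7 of 9 between 80 and 90 Mb and 40 of 70 between 90 and 100 Mb were raised, with medians of 0.89, 1.66 and 0.64. Between 140 and 150 Mb 17 of 37 were lowered and 2 raised. The median of the whole chromosome, over 412 genes with at least 5 CPM, was 0.06, 0.17 and 0.09 above the controls in the Neil2 libraries. Xist, the RNA of X inactivation, was read at 2.04, 3.13 and 1.95 CPM in the controls and 27.5, 56.5 and 71.5 CPM in Neil2 (4.45 ± 0.39, FDR = 0.000334), and Rlim, its activator, at 227, 188 and 263 CPM and 357, 454 and 530 CPM (0.98 ± 0.18). Tsix, the antisense partner of Xist, rose by 1.88 ± 0.44 from less than 1 CPM, but the library kit did not mark strand, so reads of the pair cannot be told apart. Of 12 X inactivation and Y-linked genes tested, 4 were raised and 2 lowered. With only autosomal genes in the fit, 5252 of 15422 genes were DE.

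**Figure D4:**
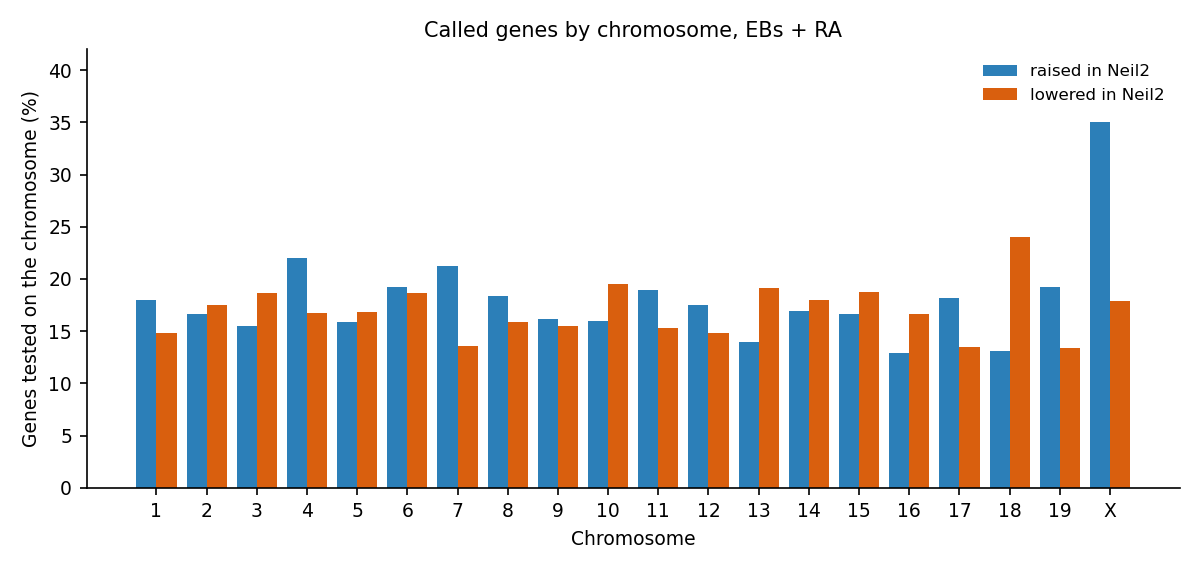
Share of tested genes raised (blue) and lowered (orange) in Neil2 against control EBs + RA, in percent (vertical axis), on each chromosome with at least 100 tested genes (horizontal axis). The share raised is 35% on X and 12.9 to 22% on the autosomes.

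The largest single changes were taken among called genes that averaged at least 2 log2 CPM and whose groups did not overlap. Besides Dbx1, Tcfap2b, Neurog1, Neurog2, Nhlh1 and Nhlh2, the 10 deepest of these falls were in Klhl14 (-7.68 ± 0.64), the long noncoding RNA Miat (-7.54 ± 0.6), 2610017I09Rik (-6.79 ± 0.57) and Rfx4 (-6.36 ± 0.56), a factor of neural tube progenitors. Miat was read at 77.9, 104 and 41 CPM in the controls and at 0.0412, 0.728 and 0.374 CPM in Neil2. The 10 largest rises within the same limits were in Xlr5a, Xist, Gm364, Pramel6, Pramel7, Crxos1, Gm14074, C130073F10Rik, Pnma5 and Tuba3b. Xlr5a stood at 0.247, 0.447 and 0.745 CPM in the controls and 21.2, 11.9 and 9.8 CPM in Neil2 (4.88 ± 0.46), and it belongs to an X-linked family of near-identical copies, among which the counting could split or drop reads. Pramel6, an oocyte and early embryo gene, rose from 1.34, 2.12 and 2.13 CPM to 9.55, 34.9 and 21.4 CPM (3.56 ± 0.47), and the homeobox gene Crxos1 from 2.43, 3.29 and 3.97 CPM to 13.3, 53 and 39.6 CPM (3.45 ± 0.49). Pramel6 and Pramel7 are also family members with close copies. Pnma5 went from 4.23, 6.67 and 14.7 CPM to 80.2, 97 and 76.7 CPM (3.31 ± 0.41), and it was highest among the controls in replicate 3.

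Whether the Neil2 difference depended on RA was asked with the EBs of the same clones that had not received it. In those EBs 8.65% of 15575 genes were raised and 7.69% lowered in Neil2. The interaction of genotype and RA was called for 2516 of 16757 genes (15.0%), with a more positive Neil2 difference under RA for 1225 (7.31%) and a more negative one for 1291 (7.7%). This count depended on single clones and was 1076 without control replicate 1, 970 without control replicate 2 and 1193 without Neil2 replicate 3. It was 3734 with the clone as a block, a fit that uses the sharing of each culture between both treatments. Interaction values of single genes and of lists are from the fit without this block.

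Many neural genes had a more negative difference under RA. The interaction was negative for 16 of 21 neural stem cell genes and positive for 0, negative for 15 and positive for 1 of 20 proneural genes, and negative for 17 and positive for 0 of 29 genes of differentiated neurons. Without RA 5 of 19, 5 of 11 and 5 of 24 tested genes of these lists were raised in Neil2, and 5, 1 and 2 were lowered. Pax6 stood at 0.683, 1.12 and 0.996 CPM in control EBs and at 3.25, 3.51 and 2.46 CPM in Neil2 EBs, with all stages scaled together, and at 129, 129 and 48.8 CPM in control and 7.86, 5.99 and 7.34 CPM in Neil2 EBs + RA. The Neil2 difference was therefore 1.77 ± 0.31 without RA and of the opposite sign with it, and the interaction was -5.65 ± 0.49 (SE, FDR = 2.63e-05). The most negative interactions among genes with a level of at least 2 log2 CPM were in Miat (-9.28 ± 0.64), Tcfap2b (-7.79 ± 1.46) and Nhlh2 (-7.15 ± 0.97).

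Many primitive streak and Hox genes had a more positive difference under RA. In EBs without RA 20 of 26 primitive streak genes were lowered and 1 was raised in Neil2, and the interaction was positive for 17 and negative for 2 of 30. Mixl1, of the primitive streak, was read at 108, 67.3 and 111 CPM in control EBs and at 2.56, 1.65 and 2.6 CPM in Neil2 EBs, against 1.13 CPM or less in every library of EBs + RA (interaction 6.47 ± 0.5, FDR = 1.55e-05). Hox genes were lowered in 26 and raised in 0 of 31 cases in EBs, and the interaction was positive for 22 and negative for 0 of 37. Hoxc8 was at 10.2, 8.56 and 3.37 CPM in control EBs and 0.164, 0 and 0.0456 CPM in Neil2 EBs, and with RA both genotypes reached 7.69 to 14.4 CPM (interaction 6.84 ± 0.74, FDR = 0.000128). Pmp22, a myelin and epithelial membrane protein, had an interaction of 6.56 ± 0.35, next to that of Hoxc8. Pluripotency genes were raised in both conditions, in 15 of 28 cases without RA, and the interaction was positive for 14 and negative for 0 of 28. Germline genes were raised in 11 and lowered in 1 of 30 cases without RA, and the interaction was positive for 12 and negative for 1 of 31. For Stra8 it was -0.42 ± 0.56 and did not pass.

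**Figure D5:**
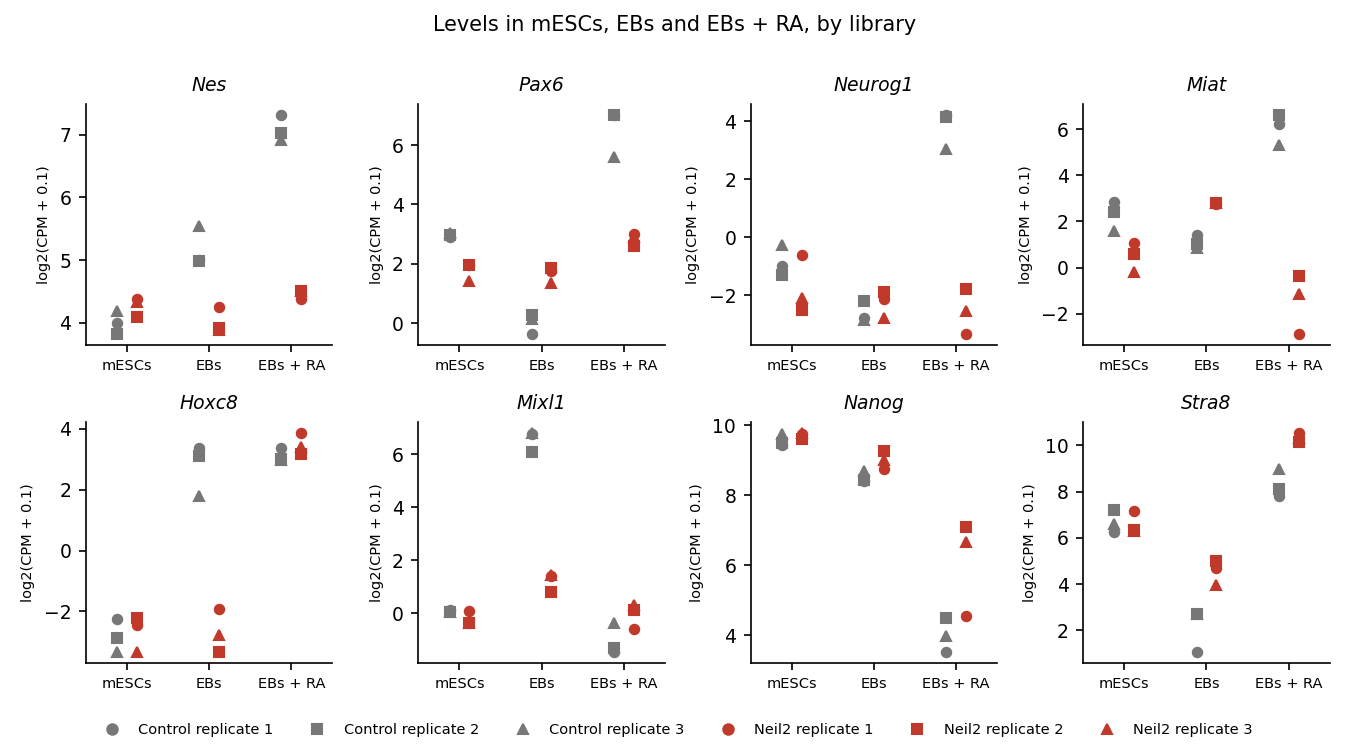
Levels of 8 genes as log2(CPM + 0.1), with all stages scaled together (vertical axes), in mESCs, EBs and EBs + RA (horizontal axes), for control (grey) and Neil2 (red) libraries with 1 symbol shape for each replicate. Nes, Pax6, Neurog1 and Miat lie lower in all Neil2 than control libraries of EBs + RA, and Hoxc8 and Mixl1 do so in EBs without RA.

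Whether the Neil2 lines differed from lines mutant for the related glycosylase gene Neil1 was asked in EBs + RA, where both mutants had 3 clones. By edgeR 0 of 15884 genes were called, and 1608 (10.1%) had an unadjusted p below 0.05, while DESeq2 called 111 genes, 22 higher and 89 lower in Neil2. The number at an unadjusted p below 0.05 was 842 without Neil1 replicate 3, 845 without Neil2 replicate 3 and 894 without Neil2 replicate 2, and it was 2125 without Neil1 replicate 1. The missing calls do not show that both mutants were alike. Basement membrane genes had the largest share of such genes among the lists, with 17 of 27 parietal endoderm and basement membrane genes at an unadjusted p below 0.05 and a median of -1.1 (Neil2 minus Neil1). Lamc1 had a difference of -1.95 ± 0.54 (SE, FDR = 0.486) and Lama1 of -2.34 ± 0.74 (FDR = 0.486). Epithelial genes had 15 of 32 members at that limit with a median of -0.51, and lysosomal genes 12 of 28 with a median of -0.61. Mesenchymal matrix genes had 12 of 33 (median 0.52), ribosomal protein genes 16 of 47 (median 0.29) and visceral endoderm genes 12 of 34 (median -0.69). For neural genes the differences were small and their errors wide, with 0.42 ± 0.28 for Pax6 and 0.17 ± 0.28 for Nes, and the neural stem cell list had 2 of 18 members at an unadjusted p below 0.05. The gene Neil1 was 0.98 ± 0.29 higher and Neil2 0.7 ± 0.2 lower (FDR = 0.486 for both) in the Neil2 lines than in the Neil1 lines.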

How the data were processed

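The authors prepared TruSeq RNA v2 libraries, which do not mark strand, sequenced 51 cycles on a HiSeq 2000, aligned reads to NCBIM37 (mm9) with TopHat2 2.0.9 and Bowtie2 2.1.0 and counted them per gene with HTSeq 0.5.4. The deposited values are raw counts per Ensembl gene. Rows that name no gene held 21.79 to 30.43% of each library and were left out. Of 37991 gene identifiers 37205 were matched to a symbol.

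Genes were kept by filterByExpr, scaled by TMM and tested with edgeR's quasi-likelihood test with robust dispersions and Benjamini-Hochberg adjustment (FDR). A gene was called where the FDR was under 0.1 and the log2 fold change was beyond 0.5 in either direction. The SE is the absolute log2 fold change divided by the square root of F. CPM are TMM-scaled. With 3 libraries against 3 an exact permutation test of 1 gene could not go below p = 0.1 and was not used. Clones are the replicates, and a p-value sets the difference between groups against the spread between clones. Comparisons were Neil2 against control EBs + RA, the same in EBs without RA, their interaction, and Neil2 against Neil1 in EBs + RA. EBs with and without RA of 1 clone came from cultures split on day 4, and their deviations from the group means correlated at 0.34 to 0.49.

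Genes were named by fixed rules: the 10 largest changes in each direction with an average of at least 2 log2 CPM, and from each of 49 lists its first 3 members and the 3 largest changes in each direction with an average of at least 0 log2 CPM, the 3 most positive and most negative interactions, and the genes the study followed. Sycp1, Slc25a31, Taf7l, Hoxb1 and Hoxb9 were named after their values were seen. The comparison and the gene lists were chosen with earlier results of these data known. Of 1477 list entries 1459 matched an identifier, and 48 lists had a tested member. The 2 tested genes with a group at 0 and 30 with 1 to 3 counts in a group changed no list median when set to their bound. Some list members are not reported here by name. Promoters came from RefSeq (GRCm38.p6) and were matched by symbol. Alternatives were DESeq2, RLE scaling, other filters and thresholds, all genotypes in 1 fit, autosomes only, a replicate block, and each library left out in turn.

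Counts were simulated for the main comparison with 200 of 15977 tested genes changed. The test recovered 76 of 100 genes changed by a log2 fold change of 1 and 97 of 100 changed by 2. Beside these true calls it made 35 false ones. In the data 34.9% of genes were called, a far larger share than was changed in the simulation, so these rates need not hold there.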

Additional observations from a re-analysis of the deposited data

Results flagged for a closer look

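By the interaction term of edgeR's quasi-likelihood fit, without a block on the clone, the Neil2 difference depended on RA for 2516 of 16757 genes. The limits were an FDR below 0.1 and an absolute log2 value above 0.5. The number was 970 to 3401 when 1 library pair of a clone was left out. Among genes of at least moderate level the difference moved furthest down under RA for Miat (-9.28 on the log2 scale), Tcfap2b (-7.79) and Nhlh2 (-7.15). It moved furthest up for Hoxc8 (6.84), Pmp22 (6.56) and Mixl1 (6.47). Mixl1 was low in every library of EBs + RA, so its value comes from the lower level in Neil2 EBs without RA. Pmp22 was read at 199, 200 and 146 CPM in control EBs and at 5.25, 3.29 and 3.28 CPM in Neil2 EBs, with all stages scaled together, and at 82.4, 72.2 and 117 CPM in control and 145, 220 and 209 CPM in Neil2 EBs + RA.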

How the results depend on the processing

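The number of DE genes was 4728 to 5858 with DESeq2, RLE scaling, another filter, all genotypes in 1 fit or the replicate block (5344), and 3166 (1674 raised, 1492 lowered) with an absolute log2 fold change above 1. Replicate numbers did not pair control with Neil2 clones (correlations of deviations -0.22, 0.31 and -0.17). With each library left out in turn the raised genes numbered 1895 to 3523. With each clone left out in turn the interaction was called for 970 to 3401 genes (395 to 1968 positive, 575 to 1433 negative). With the clone as a block it was called for 3734 genes (1999 positive, 1735 negative). At an FDR below 0.05 it was called for 770 positive and 914 negative genes. DESeq2 called 111 genes between Neil2 and Neil1 (22 raised, 89 lowered). Of 4824 values for 326 named genes, 304 lost the call, 34 gained it and 0 reversed.

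Most list medians moved by less than the spread between libraries. With at least 10 counts required, glial genes reversed to 0.12 and the medians were -0.91 for neural tube domains, -0.65 for midbrain-hindbrain, -1.54 for proneural, 0.15 for motor and sensory neuron, 0.24 for primed epiblast, -0.25 for primitive streak and -0.38 for BMP and TGF-beta genes. With no filter, erythroid genes reversed to 0.39, and the medians were -1.08 for neural tube domains, -0.75 for Hox, -2.69 for proneural, -0.41 for motor and sensory neuron, 0.94 for primed epiblast, 0.5 for cardiac and -0.78 for BMP and TGF-beta genes. These filters change which genes are tested. Primed epiblast genes were at 0.22 on autosomes only and primitive streak genes at 0.09 with all genotypes.

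With each library left out the medians ranged from 0.53 to 0.75 for forebrain, -0.48 to -0.13 for midbrain-hindbrain, -4.02 to -3.11 for proneural, -1.87 to -1.54 for neuronal, -0.47 to 0.03 for motor and sensory neuron, -0.79 to -0.33 for glial, -2.65 to -1.78 for crest, -0.27 to 0.1 for retinoid, 1.36 to 1.83 for germline, -0.01 to 0.38 for primitive streak, 0.1 to 0.51 for cardiac, 0.61 to 1.07 for macrophage, 0.09 to 1.51 for visceral endoderm, 0.05 to 0.66 for definitive endoderm, 0.59 to 0.93 for cilia, -0.91 to -0.55 for Wnt, -0.81 to -0.56 for BMP and TGF-beta, 0.06 to 0.13 for BCL2, -0.23 to -0.11 for base excision repair, 0.29 to 0.66 for NRF2, -0.42 to -0.1 for glycolysis and -0.13 to 0.02 for X and Y genes. The cause was not tested.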
